A study of Mus musculus with 13 samples.

Results

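The genes described here are the STAT5 feedback set: the suppressors of cytokine signalling Cish, Socs1, Socs2 and Socs3, the kinases Pim1 and Pim2, the cytokine Osm and the transcriptional inhibitor Id1. They were followed across sorted blood stem and progenitor cells of mice with mutant alleles of c-Cbl, an E3 ubiquitin ligase that tags activated receptor tyrosine kinases such as Kit for degradation. All probes that the platform annotation gives these 8 symbols were taken, which came to 12 of 45281 probes on the Illumina bead array and 8 of 19057 gene symbols. RNA of 13 sorted samples was profiled, 1 array each, on a C57BL/6 background. The genotypes were A/-, written so by the labels without saying what allele A is and carrying no intact second allele, then -/-, without either allele, and the control +/+. The A/- and +/+ genotypes were each sorted into 6 populations, and -/- was sorted as LTHSC only.

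Lineage-negative, Kit-positive, Sca1-positive cells (LSK cells) were split into long-term stem cells (LTHSC, negative for CD34 and Flt3), short-term stem cells (STHSC, CD34-positive and Flt3-negative) and multipotent progenitors (MPP, positive for both). Sca1-negative, Kit-positive committed progenitors were split into CMP (CD34-positive, CD16/32-negative), GMP (positive for both) and MEP (negative for both), the common myeloid, granulocyte-macrophage and megakaryocyte-erythrocyte progenitors. The labels give no age, sex or number of animals behind an array and do not say whether animals were pooled. Each genotype had 1 array in a population. The p-values below therefore rest on how far the A/- minus +/+ difference varied between populations, and not between animals. Tests of level between populations or compartments use that same spread, and how far populations of 1 compartment differ does not enter.

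STAT5 is a transcription factor that JAK kinases phosphorylate at activated cytokine receptors, among them those for thrombopoietin, erythropoietin, interleukin-3 and GM-CSF. It turns on genes whose products restrain the same receptors, so that the transcripts of Cish and the Socs genes serve as a readout of cytokine signalling. CIS and SOCS2 bind phosphotyrosines on receptors, SOCS1 and SOCS3 also inhibit JAK kinases, and SOCS3 is best known for restraining the G-CSF receptor and gp130. PIM1 and PIM2 are serine/threonine kinases that favour survival and growth of blood cells, oncostatin M (Osm) is a secreted cytokine of the interleukin-6 family, and ID1 binds basic helix-loop-helix factors and keeps them from DNA.

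The palindrome that STAT proteins bind, TTCNNNGAA, was searched in RefSeq promoters of assembly GRCm38.p6, from 250 bases before to 50 bases after an annotated start. Promoter sequences were at hand for 5 of the 8 genes (Cish, Socs1, Socs3, Pim1 and Pim2; Pim1 with 2 starts, so 6 windows), and Socs2, Osm and Id1 were not searched. Because the motif is its own reverse complement, 1 search covers both strands. The Cish and Socs3 promoters, the windows of the set that hold the motif, are printed 5′ to 3′ on the strand of the gene with the motif in capitals. Cish lies on the plus strand, chr9:107296409-107296708, and Socs3 on the minus strand, chr11:117969317-117969616.
Cish: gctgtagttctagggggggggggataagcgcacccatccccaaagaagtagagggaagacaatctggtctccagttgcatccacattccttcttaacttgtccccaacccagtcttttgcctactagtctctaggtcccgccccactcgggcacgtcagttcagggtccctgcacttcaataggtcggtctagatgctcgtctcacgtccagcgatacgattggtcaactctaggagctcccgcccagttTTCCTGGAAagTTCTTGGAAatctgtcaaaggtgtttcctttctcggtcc
Socs3: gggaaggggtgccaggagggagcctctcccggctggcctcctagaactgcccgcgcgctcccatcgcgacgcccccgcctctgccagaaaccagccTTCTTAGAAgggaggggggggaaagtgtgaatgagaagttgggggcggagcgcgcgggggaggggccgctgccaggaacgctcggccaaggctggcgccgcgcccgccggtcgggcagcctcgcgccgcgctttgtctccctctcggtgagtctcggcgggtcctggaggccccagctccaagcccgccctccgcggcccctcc
In the Cish window TTCCTGGAA covers bases 1 to 9 and TTCTTGGAA bases 12 to 20, counted from the first base of the RefSeq transcript. In the Socs3 window TTCTTAGAA covers bases -154 to -146, counted from a start that lies inside the annotated gene and is not its outermost one. The motif was in 2726 of 32851 promoters of the same length (8.3%), and 150 of them (0.457%) held 2 or more copies, as Cish does. These letters were not in the windows of Socs1, Pim1 or Pim2, and a match in sequence is not a measurement of binding.

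Between 30.4% and 38% of probes were detected on an array (detection p under 0.01). Before normalization the 3 LTHSC arrays had a median signal of 51.71 to 52.85 and the other 10 arrays 148.3 to 191, so LTHSC and the remaining populations cannot be told apart from this difference between array sets. The A/- arrays were dimmer than their +/+ partners in all 6 pairs, with a ratio of mean signal of 0.654 (GMP) to 0.957 (LTHSC), which the quantile normalization removed. Cbl was not detected on any array (4.49 to 5.33, as log2 signal), so these probes do not check the genotype. The Y-linked Eif2s3y was not detected in +/+ LTHSC (4.64) and lay between 9.04 and 10.71 on the other 12 arrays. In LTHSC, a difference of A/- or -/- from +/+ therefore cannot be told apart from this Y-linked difference between the arrays. Of the sort markers, Kit was detected on all 13 arrays and Flt3 on 0 of 13, including the MPP sorted on it. Cd34 was detected on 12 of 13 arrays. These include arrays sorted as CD34-negative, namely -/- (10.21), A/- and +/+ LTHSC and +/+ MEP. Values below are normalized log2 signals. They compare a probe with itself across arrays and do not rank genes against each other. In sorted bulk RNA fewer cells that express a gene and less RNA per cell cannot be told apart.

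In all, 5 of the 7 tested genes had less signal in committed progenitors than in LSK cells, and the 3 largest log2 differences were those of Socs2, Socs3 and Cish. Cish fell to 7.82 in committed progenitors against 10.34 in LSK cells, Socs2 to 5.72 against 8.49, Socs3 to 5.65 against 8.38, Pim1 to 6.28 against 7.95 and Osm to 8.97 against 9.69 (means of 6 arrays each, A/- and +/+). Pim2 and Id1 did not pass the test, and Socs1 was detected on 0 of 13 arrays and was not tested. The same 5 of 7 passed with the LTHSC pair left out. Over all 12807 tested features, 45.9% were called in this comparison and 23.6% were called lower. Socs2, Socs3 and Pim2 passed the detection filter through their LSK arrays, so the count over the tested members is a description. Sizes depend on the treatment of background. In the authors' processed values Cish was at -1.33, Socs2 at -0.92, Socs3 at -0.91 and Pim1 at -0.31 (log2, all still called), and there the LTHSC arrays were scaled apart and the median of all features was 0.64, against 0.03 here. In the same values Osm was at 0.05 and not called (limma adjusted p = 0.658), and Pim2 and Id1, at 0.49 each, were called higher (limma adjusted p = 1.74e-05 and 0.0141), though below that median. Of the 12807 features, 10874 were called higher in those values and 627 lower.

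**Figure D1:**
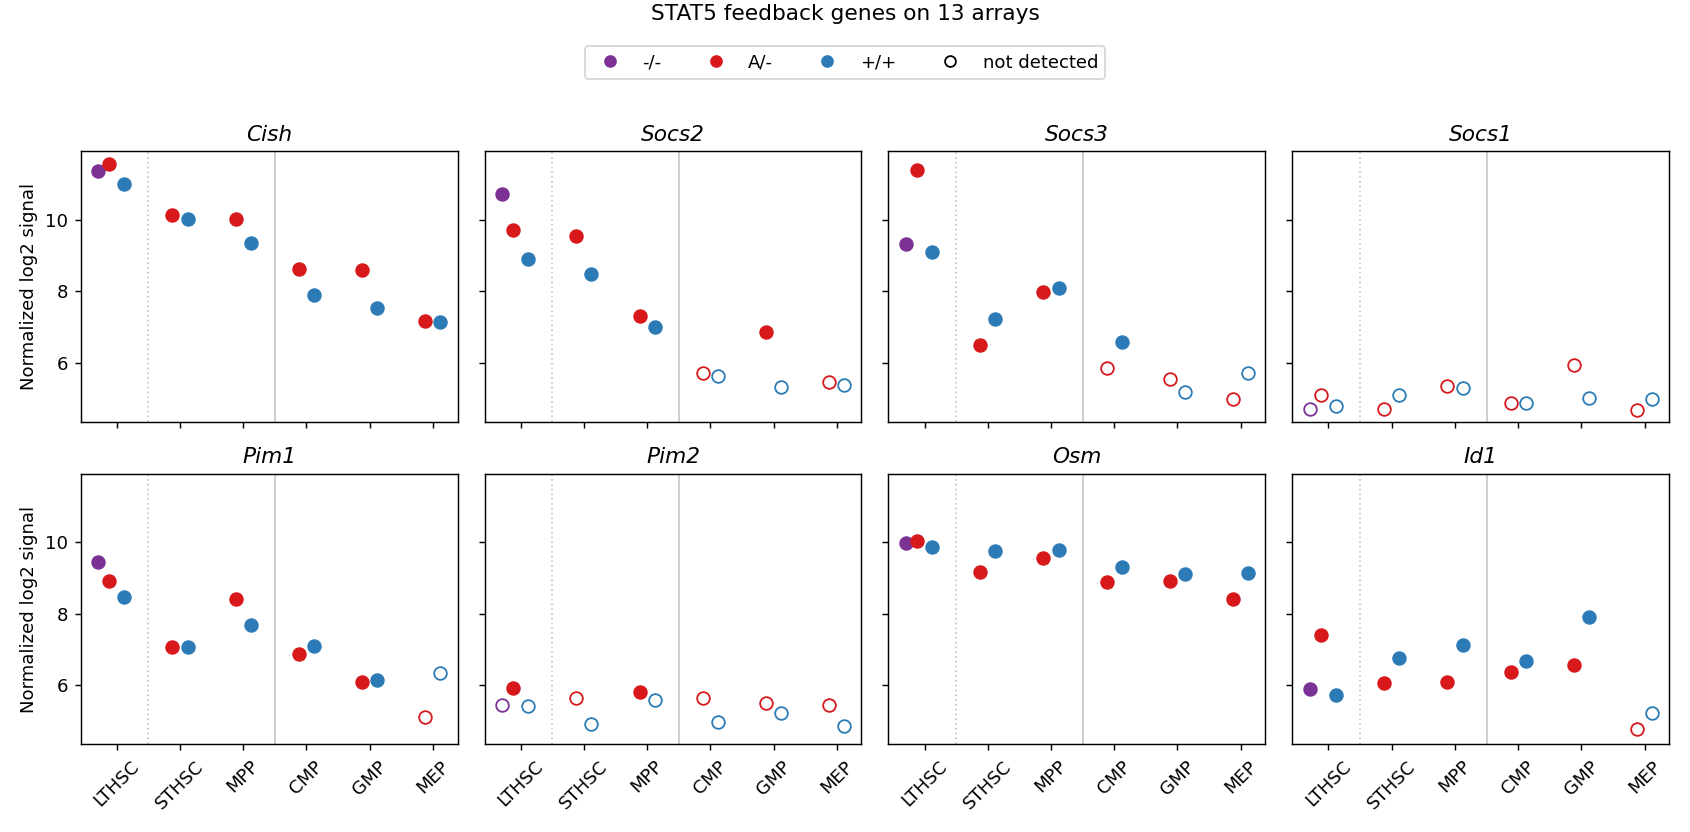
Normalized log2 signal of the 8 genes (y axis, 1 panel a gene) in the 6 populations (x axis), with -/- in purple, A/- in red and +/+ in blue. Open points were not detected (p of 0.01 or more). Cish lies between 10.99 and 11.56 in LTHSC and at 7.18 and 7.12 in A/- and +/+ MEP, while all Socs1 points are open.

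Cish encodes CIS, the founding member of the SOCS family. Its signal was 11.35 in -/-, 11.56 in A/- and 10.99 in +/+ LTHSC. It was 10.12 and 10.02 in A/- and +/+ STHSC, 10.02 and 9.34 in MPP, 8.62 and 7.88 in CMP, 8.58 and 7.52 in GMP, and 7.18 and 7.12 in MEP. Cish was detected on all 13 arrays, and every committed array lay below every LSK array. By population mean the order was LTHSC, STHSC, MPP, CMP, GMP, MEP, and the arrays of STHSC and MPP overlapped, as did those of CMP and GMP. Committed progenitors were lower by 2.52 on the log2 scale (SE 0.15), 5.75-fold, with an adjusted p of 5.15e-06 by limma's moderated test with Benjamini-Hochberg adjustment. The difference was -2.02 without background correction, and -2.06 without the LTHSC pair (limma adjusted p = 0.000151).

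Socs2 encodes a SOCS protein best known for limiting growth hormone signalling. Its signal was 10.72 in -/-, 9.71 in A/- and 8.89 in +/+ LTHSC, then 9.53 and 8.49 in A/- and +/+ STHSC and 7.29 and 7.01 in MPP. In committed cells it was detected in A/- GMP (6.86) and on none of the other 5 arrays, at 5.32 in +/+ GMP, 5.70 and 5.61 in A/- and +/+ CMP, and 5.46 and 5.38 in MEP. The committed and LSK arrays did not overlap. The fitted log2 difference was -2.76 (SE 0.21), with a limma adjusted p of 2.05e-05. It was -1.53 without background correction and -2.36 without the LTHSC pair (limma adjusted p = 0.000401). How low Socs2 was on the 5 committed arrays that did not detect it was not measured. A further Socs2 probe was detected on 0 of 13 arrays (4.52 to 4.87), including -/- LTHSC (4.57), and was not tested. It showed neither the difference between compartments nor the higher -/- signal, so all Socs2 results rest on the tested probe. Cish and Socs2 were the members whose 6 committed arrays all lay below the 6 LSK arrays, and 5.22% of all features did so.

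Socs3 was high in LTHSC, at 9.32 in -/-, 11.38 in A/- and 9.09 in +/+. It was 6.50 and 7.23 in A/- and +/+ STHSC and 7.98 and 8.08 in MPP. In committed progenitors it was detected in +/+ CMP (6.59) and not in A/- CMP (5.84), GMP (5.55 and 5.19 in A/- and +/+) or MEP (4.996 and 5.71). MPP thus lay above STHSC in both genotypes, a different order from Cish and Socs2, and the STHSC and CMP arrays overlapped. The committed minus LSK difference was -2.73 (SE 0.37; limma adjusted p = 0.000471), -1.55 without background correction and -1.80 without the LTHSC pair (limma adjusted p = 0.000652).

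Socs1, the direct JAK inhibitor that limits interferon-gamma responses, stayed between 4.69 and 5.93 with no array detected. Its level below detection was not measured.

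Pim1 was 9.46 in -/-, 8.93 in A/- and 8.47 in +/+ LTHSC, 7.08 in STHSC of both genotypes, and 8.41 and 7.70 in A/- and +/+ MPP. It was 6.86 and 7.10 in CMP, 6.10 and 6.14 in GMP, and 5.10 and 6.36 in MEP, where neither array detected it. Like Socs3, it was higher in MPP than in STHSC, and its STHSC and CMP arrays overlapped. The committed minus LSK difference was -1.67 (SE 0.23; limma adjusted p = 0.000549), -0.90 without background correction and -1.29 without LTHSC (limma adjusted p = 0.00615). A further Pim1 probe, detected on 6 of 13 arrays between 4.70 and 6.18, gave 0.07 (SE 0.20; limma adjusted p = 0.811), so the 2 Pim1 probes disagree.

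Pim2 was dim throughout, between 4.85 and 5.92, and was detected on 2 of 13 arrays, A/- LTHSC (5.92) and A/- MPP (5.82). It passed the detection filter only through these A/- arrays. Its committed minus LSK difference was -0.28 (SE 0.14; limma adjusted p = 0.147).

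Osm was detected on all 13 arrays within a narrow range. It was 9.96 in -/-, 10.03 in A/- and 9.85 in +/+ LTHSC, 9.17 and 9.75 in A/- and +/+ STHSC, and 9.56 and 9.78 in MPP. In A/- and +/+ it was 8.89 and 9.31 in CMP, 8.93 and 9.12 in GMP, and 8.41 and 9.14 in MEP. Apart from LTHSC over MPP, the arrays of neighbouring populations overlapped. The difference was -0.73 (SE 0.13; limma adjusted p = 0.00171), and -0.60 without LTHSC (limma adjusted p = 0.00578). In the authors' processed values the sign turned (0.05). A further Osm probe, detected on 2 of 13 arrays, gave -0.24 (SE 0.18; limma adjusted p = 0.286) and was not called.

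Id1, an inhibitor of differentiation genes that BMP signals also induce, did not follow the other genes. It was 5.88 in -/-, 7.41 in A/- and 5.73 in +/+ LTHSC, 6.06 and 6.75 in A/- and +/+ STHSC, and 6.08 and 7.14 in MPP. It was 6.36 and 6.68 in CMP, 6.58 and 7.91 in GMP, its highest population, and 4.76 and 5.22 in MEP, where it was not detected. Only the step from STHSC to MEP separated neighbours in the order of means. The committed minus LSK difference was -0.28 (SE 0.34; limma adjusted p = 0.536).

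Across the 6 populations, 5 of 7 members passed the moderated F test, against 55.6% of all features. The limma adjusted p-values were 3.11e-05 for Cish, 9.87e-05 for Socs2, 0.00125 for Socs3, 0.00163 for Pim1 and 0.0101 for Osm, and 0.093 for Id1 and 0.301 for Pim2. With the authors' processed values, where the LTHSC arrays were scaled apart, 12759 of 12807 features passed, so nothing is read from a pass there. In those values Socs3 was at 0.0522, and Pim2 (3.4e-07) and Id1 (0.000357) passed. With 75th percentile scaling Osm was at 0.0866. Without the LTHSC pair Id1 passed (0.00301). The highest mean was in LTHSC for 5 of 7 members, against 22.9% of features, and LTHSC cannot be told apart from its array set. The further Pim1 probe was lowest in LTHSC (mean 5.10), where no array detected it, and the further Osm probe was highest in STHSC. By the tested probes, the lowest mean was in MEP for all 7, against 30.9%. Neither MEP array detected Socs2, Socs3, Pim1, Pim2 or Id1, so for these genes that place is one of signals that were not detected.

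**Figure D2:**
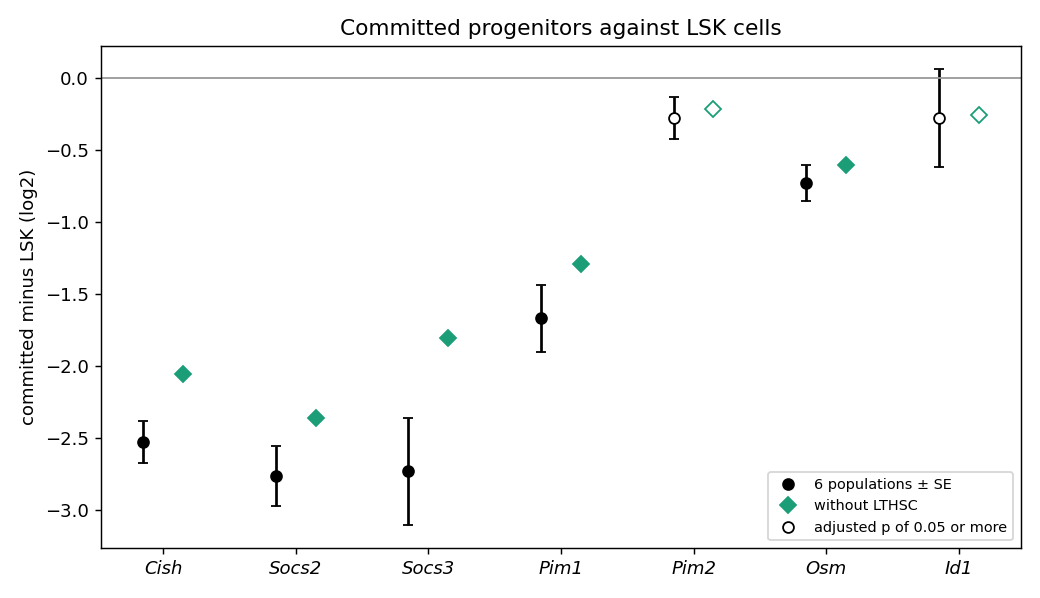
Committed progenitors minus LSK cells, as log2 difference (y axis), for the 7 tested genes (x axis). Circles are the fit over 6 pairs with its SE and diamonds the fit without the LTHSC pair. Open symbols have a limma adjusted p of 0.05 or more. Cish, Socs2 and Socs3 lie at -2.52, -2.76 and -2.73, and the diamonds lie closer to 0.

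Markers of mature neutrophils also differed between the groups. Of 17 measured markers, 5 to 7 were detected on A/- committed arrays (mean log2 signal 5.90 to 6.30) and 10 to 14 on +/+ committed arrays (7.30 to 10.50). On LSK arrays 14 to 16 were detected in A/- (mean 10.10 to 10.81) and 15 to 17 in +/+ (10.38 to 11.78). Of the 17, 7 were detected on no A/- committed array (Cd177, Chil3, Itgam, Mmp8, Mmp9, Ngp and Padi4) and 3 of these, Itgam, Mmp8 and Padi4, on no +/+ committed array, while S100a8, S100a9 and Csf3r were detected on all 3 A/- committed arrays. The summed signal of the 17 was 2278 to 5001 on A/- and 9892 to 127469 on +/+ committed arrays, and 97674 to 139877 on A/- and 118390 to 219325 on +/+ LSK arrays. Over the 13 arrays, Pearson's r with this mean was 0.79 for Osm, 0.61 for Socs3, 0.60 for Pim1, 0.55 for Cish, 0.53 for Socs2, 0.22 for Id1 and 0.00 for Pim2, and the arrays differ in population, genotype and array set. In +/+ MEP the marker mean was 10.50, inside the range of the LSK arrays, while Cish (7.12), Socs2 (5.38), Socs3 (5.71), Pim1 (6.36) and Osm (9.14) lay below every LSK array. The part of neutrophil RNA in the levels of these genes was not tested.

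**Figure D3:**
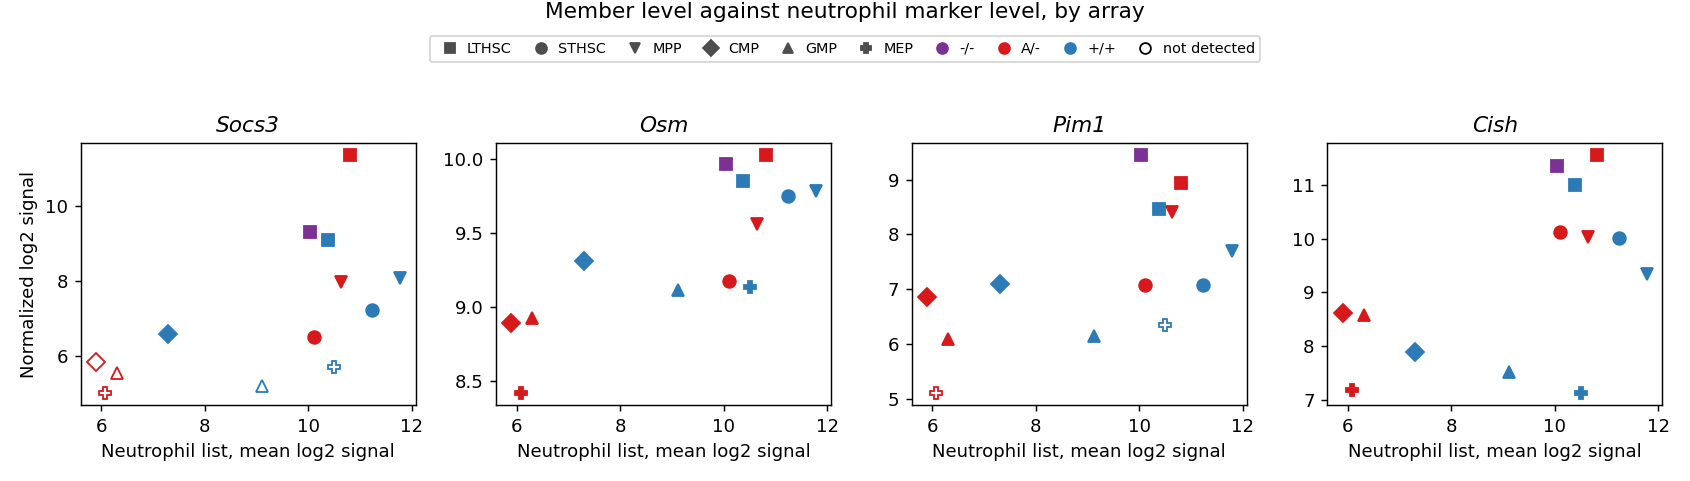
Log2 signal of Socs3, Osm, Pim1 and Cish (y axis) against the mean log2 signal of 17 neutrophil markers (x axis), 1 point an array, coloured by genotype. Osm climbs with the markers (r of 0.79), and the +/+ MEP array, at 10.50 on the x axis, has Socs3 at 5.71.

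Cish, Socs2, Socs3, Pim1 and Osm were alike in level over the 13 arrays, with r of 0.94 for Socs2 with Cish, 0.92 for Socs3 with Pim1, 0.90 for Pim1 with Osm, 0.89 for Socs3 with Osm, and 0.88 for Cish with Pim1 and with Socs3. The lowest r among these genes was 0.72, for Socs2 with Osm. Over the 10 arrays outside LTHSC Socs2 with Cish and Socs3 with Pim1 were at 0.89 and 0.92, and Socs2 with Pim1 at 0.47. Id1 had r between 0.04 and 0.37 with the others. Among all tested features with a symbol, the closest to Cish were Itm2a, Txnip and Gprasp2 (0.98 each). Those closest to Socs2 were Csgalnact1, Dst and Gm11346 (0.97 each), and those closest to Pim1 were Slain1 (0.98), Slc35f2 (0.97) and Il18 (0.96). Dido1 (0.97), Synpo and Chil5 (0.95 each) were closest to Socs3. The closest to Osm were H2-Ab1 (0.95), Prr13 and Trim34a (0.94 each), and to Id1 Bambi-ps1 (0.93), Ms4a6d (0.92) and Srf (0.90). All share the same 13 arrays.

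The genotype comparison asks whether A/- cells carried more or less of these transcripts than +/+ cells. In the fit over 6 pairs, 0 of 7 members passed an adjusted p of 0.05 by limma, and 0.593% of all features did (76 of 12807). At an unadjusted p under 0.05 Cish, Socs2, Pim2 and Osm passed, 4 of 7, and 15.6% of features did. Pim2 entered the test only through A/- arrays, so nothing is read from that count. Cish was higher in A/- in 6 of 6 pairs, as 4.75% of features were, and with cyclic loess in 5, MEP being at -0.11. The signs of Socs2 and Pim2 were also positive in 6 pairs, but neither array detected Socs2 in CMP and MEP, nor Pim2 in 4 of 6 pairs, so in those pairs the sign is that of signals that were not detected. The mean log2 difference was 0.53 for Cish (SE 0.15; limma adjusted p = 0.153, unadjusted 0.00484), 0.64 for Socs2 (SE 0.21; adjusted p = 0.210, unadjusted 0.0131) and 0.50 for Pim2 (SE 0.14; adjusted p = 0.167, unadjusted 0.00677). Without background correction these were 0.42, 0.39 and 0.16. By pair, A/- minus +/+ ran from 0.05 (MEP) to 1.06 (GMP) for Cish, from 0.08 (MEP) to 1.54 (GMP) for Socs2 and from 0.24 to 0.72 for Pim2. A further Pim2 probe, detected on 3 of 13 arrays, was 0.38 higher (SE 0.28) and lower in A/- in 2 of 6 pairs. The further Socs2 probe, detected on 0 of 13 arrays, was higher in A/- in 3 of 6 pairs.

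Osm and Id1 ran the other way outside LTHSC, lower in A/- in 5 of 5 pairs, against 10.1% of features, Id1 in 4 of 5 with 75th percentile scaling (0.13 in MEP). Neither MEP array detected Id1, so in that pair its sign is that of signals that were not detected. Over all 6 pairs the difference was -0.33 for Osm (SE 0.13; limma adjusted p = 0.261, unadjusted 0.0293) and -0.36 for Id1 (SE 0.34; unadjusted p = 0.315). The neutrophil mean was lower in A/- than in +/+ in each of these 5 pairs and was 10.81 against 10.38 in LTHSC, the same pattern of signs as for Osm and Id1, and its part in them was not tested. The further Osm probe, detected on 2 of 13 arrays, gave -0.08 (SE 0.18) and was higher in A/- in 3 of 6 pairs. Socs3 (0.06, SE 0.37; adjusted p = 0.952) and Pim1 (-0.06, SE 0.23; adjusted p = 0.925) had no shared direction. Socs3 was lower in A/- in 4 of 6 pairs. Without the LTHSC pair its mean was -0.38 (limma adjusted p = 0.308) and Id1 -0.77 (limma adjusted p = 0.0607).

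**Figure D4:**
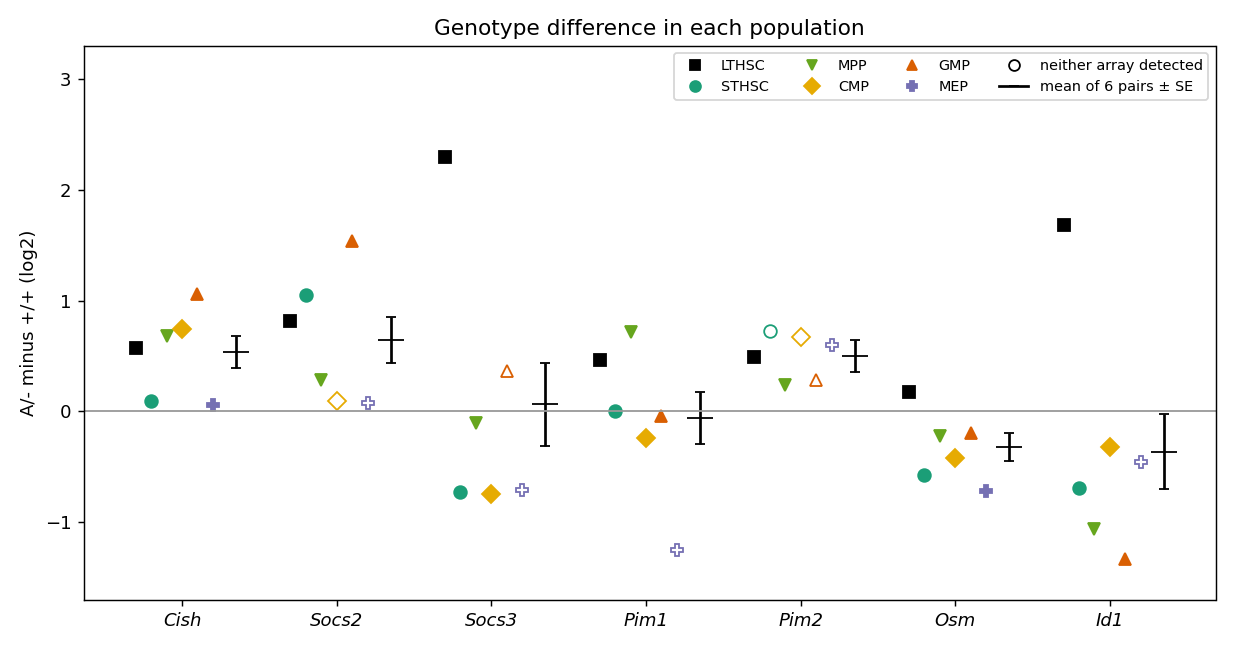
A/- minus +/+ (log2 difference, y axis) for the 7 tested genes, 1 point a population, with the mean of 6 pairs and its SE. Open points are pairs in which neither array detected the gene. All 6 points of Cish lie above 0 (MEP below 0 with cyclic loess), and the LTHSC points of Socs3 (2.30) and Id1 (1.68) stand above the others.

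Split by compartment, 0 of 7 members were called by limma in LSK cells (0% of features) and 0 of 7 in committed progenitors (0.476%). At an unadjusted p under 0.05 these were Socs2 in LSK cells (7.01% of features passed) and Cish, Pim2 and Osm in committed cells (18.6%). The Cish difference was 0.45 (SE 0.21; limma adjusted p = 0.694) in LSK cells and 0.62 (SE 0.21; adjusted p = 0.182) in committed cells. That of Socs2 was 0.72 (SE 0.31; adjusted p = 0.691) in LSK and 0.57 (SE 0.31; adjusted p = 0.365) in committed cells, and without the GMP pair the committed value was 0.08. Pim1 was 0.39 higher in A/- LSK cells and 0.51 lower in A/- committed cells (its log2 differences), and the difference between these effects was -0.90 (SE 0.38; limma adjusted p = 0.592, unadjusted 0.043). Neither MEP array detected Pim1, and without that pair the committed value was -0.14 and the difference of effects -0.53. The further Pim1 probe was at 0.05 in committed cells. In that comparison of effects 0 of 7 members and 0.00781% of features were called, with 1 of 7 and 8.36% at an unadjusted p under 0.05.

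Single pairs of arrays carry no test, and a gene was counted there when its arrays were at least 2-fold apart and the brighter one was detected. In LTHSC Socs3 was 4.92-fold and Id1 3.21-fold higher in A/- than in +/+, 2 of 7 members, against 3.72% of features. Under 6 other settings of background correction and normalization the Socs3 difference stayed at 1.83 or more (log2), and that of Id1 was as low as 0.75, below 2-fold. In STHSC Socs2 was 2.07-fold higher in A/- (1 of 7, against 4.06%), and in MPP Id1 was 2.08-fold lower (1 of 7, against 6.29%). In GMP Cish was 2.09-fold higher and Id1 2.51-fold lower in A/-. Socs2 was counted there too on its measured signals (3 of 7, against 8.15%), but the +/+ array did not detect it and the bound was at least 1.88-fold higher by the normalization used. Without background correction none of these STHSC, MPP and GMP differences reached 2-fold. On the log2 scale they were then 0.85 for Socs2 in STHSC, -0.48 for Id1 in MPP, and 0.73, 0.575 and -0.74 for Cish, Socs2 and Id1 in GMP. The GMP pair also differed in its markers, with a megakaryocyte-erythroid mean of 10.10 in A/- and 8.49 in +/+ and a neutrophil mean of 6.30 in A/- and 9.12 in +/+, whose part in these differences was not tested. In CMP and MEP 0 of 7 members were counted, against 2.98% and 6.1% of features. These counts use the tested probe of each gene. The further Pim2 probe, not in them, was 2.43-fold higher in A/- STHSC and 2.12-fold higher in A/- MPP. The +/+ arrays did not detect it there, and the bounds were at least 1.38-fold and 1.25-fold.

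The -/- LTHSC array differed from both other LTHSC arrays in Socs2, at 10.72 against 9.71 in A/- and 8.89 in +/+. This was 3.57-fold above +/+ (1 of 7 members, against 3.4% of features) and 2.02-fold above A/-. Pim1 was 1.98-fold above +/+ by its tested probe, just under the 2-fold line. The further Pim1 probe was detected on no LTHSC array and gave -0.40 (log2) for -/- minus +/+. Socs3 and Id1 were lower in -/- than in A/-, 4.19-fold and 2.88-fold (with Socs2 3 of 7 members, against 3.76%), and lay 0.23 and 0.15 above +/+ on the log2 scale. The neutrophil mean was 10.04 in -/-, 10.81 in A/- and 10.38 in +/+ LTHSC, and its part was not tested. Eif2s3y was detected in -/- and A/- LTHSC but not in +/+ LTHSC. Genotype thus cannot be told apart from this Y-linked difference in the comparisons with +/+. All comparisons here share arrays and are given side by side.

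The other genes of the pathway were read from 5 lists, against the 23.6% of all features called lower and 45.9% called in all between the compartments. Between compartments, JAK-STAT genes were called lower in committed progenitors in 3 of 9 tested genes and higher in 0: Stat4 (-2.20, SE 0.29), Jak3 (-1.43, SE 0.12) and Stat3 (-1.30, SE 0.17). Stat5a, which encodes a form of STAT5 itself, differed by -0.15 (SE 0.11; limma adjusted p = 0.277), and the Stat5b probe was detected on 0 of 13 arrays. Of 12 cytokine receptor genes 6 were lower, among them Ghr (-1.45), the growth hormone receptor, and Kit (-0.69). Ghr was detected on 5 of 13 arrays, so the size of its difference rests in part on signals that were not detected. Epor, the erythropoietin receptor, was higher (1.62, SE 0.34; limma adjusted p = 0.00457). Other regulators of the pathway gave 2 higher (Pias4 0.39, Ptpn2 0.48) and 3 lower (Socs5 -1.27, Pias3 -0.58, Ptpn6 -0.56) of 14, no more than the share over all features.

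Of 11 other STAT5 target genes 7 were lower and 1 higher, beside 23.6% of all features called lower. Tfrc, the transferrin receptor, was higher (1.45, SE 0.15), and Tnfrsf13b (-1.64), the survival gene Bcl2 (-1.11) and Bcl6 (-0.67) were among the lower ones. Of 7 genes of the Id and BMP group 6 were lower, led by Smad1 (-1.60, SE 0.12), Id2 (-1.11, SE 0.40) and Bmpr2 (-1.02, SE 0.09). With each array scaled to its 75th percentile, which puts the median of all features at 0.27, Ptpn6, Ccnd2 and Ccnd3 change sign. In the authors' processed values, where the LTHSC arrays were scaled as a separate set and the median of all features is 0.64, Kit, Bcl6, Id2 and 12 more of these called genes do.

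Between A/- and +/+ over 6 pairs, 0 genes of the 5 lists were called by limma. The numbers at an unadjusted p under 0.05 were 2 of 14 other regulators, 1 of 9 JAK-STAT genes, 2 of 12 receptors, 2 of 11 targets and 2 of 7 Id and BMP genes, beside 15.6% of all features. The list medians were 0.16, -0.10, 0.10, 0.04 and -0.11 in that order, against 0.01 for all features. The D-type cyclin gene Ccnd1 differed most among the targets (0.73, SE 0.15; limma adjusted p = 0.072), with Ccnd2 the other way (-0.50, SE 0.13; adjusted p = 0.137). Jak3 was at 0.50 (SE 0.12; adjusted p = 0.117), Id2 at -1.12 (SE 0.40; adjusted p = 0.238) and Csf3r, the G-CSF receptor gene that is also in the neutrophil list, at -0.54 (SE 0.23; adjusted p = 0.292).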

How the data were processed

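Per the labels' protocols, total RNA was column-purified and converted to biotin-labelled cRNA. The main deposited table holds, per the file headers, an intensity (linear signal, not normalized) and a detection p-value for each of 45281 probes on 13 arrays, and 326 empty lines were left out. The scanner software was not given in the sources used here. A second table holds the authors' processed intensity values, with medians of 52.19 to 52.2 on LTHSC arrays and 175.7 to 175.9 on the others, so they were scaled in 2 sets. It served as an alternative.

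In limma 3.58.1 (R 4.3.3), neqc (offset 16) estimated background through the detection p-values, quantile-normalized the 13 arrays and gave log2 values. All changes are therefore relative, and the offset shrinks those of dim probes. The probe with the highest mean stood for a gene, and 12807 of 29453 features were detected (p under 0.01) on at least 2 arrays and tested. Socs1 was not. The fits were lmFit and eBayes with a trend over the 12 A/- and +/+ arrays, with population as a fixed block for genotype effects and genotype as a covariate for population effects. The Benjamini-Hochberg adjusted p threshold was 0.05 over all features. Single pairs had no test, and "at least" folds use the lowest detected signal on the dim array. The scripts were tested on simulated data. Number of arrays limits the precision.

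Probes were named from the platform annotation (34885 with 1 symbol, 18 with several, 10378 unlisted). The text names all 8 members, genes of 5 pathway lists that passed the threshold or differed most, cell type markers and, for 6 members detected on enough arrays, the 3 genes of highest correlation. The members and lists were chosen with earlier results of these data known. The alternatives changed background correction, offset, normalization, filter, probes, variance model and the pairs included.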

Additional observations from a re-analysis of the deposited data

Results flagged for a closer look

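The A/- minus +/+ differences of 7 genes in 6 populations were searched for a pair far from the others, by the gap to the nearest pair over the whole range against Dixon's 95% critical value for 6 values. Chance alone marks about 1 in 20 such groups. Socs3 stood out in LTHSC, at 2.30 on the log2 scale with a gap of 0.634 of the range. Id1 stood out in the same pair, at 1.68 with a gap of 0.665. Under 6 other settings of background correction and normalization the Socs3 gap was above the limit in 3 (0.468 to 0.807 in all) and the Id1 gap in 1 (0.428 to 0.628). The +/+ LTHSC array of that pair is the one on which Eif2s3y was not detected. In the -/- LTHSC array Socs3 (9.32) and Id1 (5.88) were near the +/+ values (9.09 and 5.73).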

How the results depend on the processing

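The number of members called was 0 under 16 alternatives in each of the 4 genotype comparisons, 5 to 6 between committed progenitors and LSK cells and 4 to 6 in the test among populations (15 alternatives each). The 6 with the authors' values are not the same genes and directions, since Osm is lost between compartments (adjusted p 0.658) and Pim2 (1.74e-05) and Id1 (0.0141) are called higher. Counts over all features moved more. Over 6 pairs (76) they were 122 with all probes kept, 11 without trend and 2 to 473 leaving out 1 pair. In LSK cells (0) they were 5 with no filter, 1 with all probes and 0 to 81 leaving out a pair. In committed progenitors (61, 18 higher and 43 lower) they were 95 without background correction, 97 with the authors' processed values, 270 with 75th percentile scaling (135 each way), 98 with no filter, 113 with all probes, 1 without trend and 1 to 209 leaving out a pair. For the difference of effects (1) they were 2 with no filter, 0 without trend and 0 to 5 leaving out a pair. For committed progenitors minus LSK cells (5877, 2851 higher and 3026 lower) the authors' values gave 11501 (10874 higher, 627 lower), 75th percentile scaling split 5620 higher and 2069 lower, cyclic loess 2087 and 3617, and leaving out a pair gave 3176 (without MEP) to 6092. Among populations (7123) the authors' values gave 12759, and leaving out a pair 3429 (without MEP) to 7368. The 11 member differences of at least 2-fold in single pairs were 3 without background correction, 7 with an offset of 50 and 3 with the authors' values. Between compartments with the authors' values Osm was at 0.0487, Pim2 at 0.49 and Id1 at 0.49. The other sign changes were of values not called in either setting. Pim1 over 6 pairs was 0.0484, 0.0134, 0.039 and 0.0394 without background correction, with an offset of 50, with the authors' values and with 75th percentile scaling, and Socs3 was -4e-04 in 2 separate sets. For the difference of effects Pim2 was -9e-04 with an offset of 50, and Socs2 0.11 with 75th percentile scaling and 0.10 with cyclic loess. Leaving out 1 pair moved Socs3 and Pim1 over 6 pairs between -0.38 and 0.23 and between -0.22 and 0.18, Socs3 and Id1 in LSK cells between -0.41 and 1.10 and between -0.88 and 0.49, and Id1 between compartments between -0.77 and 0.35. It moved the difference of effects between -0.64 and 0.10 for Socs2, -1.46 and 0.0471 for Socs3, -0.0523 and 0.45 for Cish, -0.0903 and 0.15 for Pim2 and -1.20 and 0.17 for Id1. Among populations, adjusted p was 0.0522 for Socs3 with the authors' values and 0.0866 for Osm with 75th percentile scaling, and Pim2 (3.4e-07) and Id1 (0.000357) passed with the authors' values. The 75th percentile scaling put the median of all features at 0.13 in the committed genotype comparison and 0.11 for the difference of effects, against 0.01 and -0.01. Causes were not tested. Each pair is 1 population, so population is the block in every genotype fit, and neqc in 2 separate sets was not run for population comparisons. Signal over background limits Socs1, Pim2 and the committed arrays of Socs2 and Socs3.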
